A study of Mus musculus with 6 samples.

Results

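The RNA content of wild-type mouse blood platelets was described from 3 sequencing libraries, chosen by their titles as the wild-type samples of a series of 6. The series asked how platelet gene expression relates to an R734C change in the integrin β3 subunit, and its other 3 libraries carry that change. Those 3 were not used here, so no difference between genotypes was measured. The labels give the tissue as blood, the cell type as thrombocyte and the genotype as wild type. The sources used here give no strain, age or sex, and no treatment of the platelets. The labels do not say whether the 3 libraries came from separate mice, so the spread reported below may be technical in part. Every result is a level, a share or a spread over these 3 libraries, and no test was made because only 1 group was described.

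Platelets are small cells without a nucleus that circulate in blood and seal breaks in vessel walls. They are shed by megakaryocytes, the giant cells of the bone marrow, which load them with granules, receptors, a cortical ring of microtubules and messenger RNA. Having no nucleus, a platelet cannot transcribe new nuclear messages, so its RNA is largely a legacy of the megakaryocyte that loses amount as the platelet ages. Platelets are known for messages of the actin and tubulin skeleton, of α-granule cargo such as chemokines, of adhesion receptors and of the signalling proteins that connect receptors to the integrin αIIbβ3.

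Levels are FPKM, the fragments assigned to a gene relative to its transcript length and to all fragments of the library. This scale is meant to make genes comparable. Coverage along transcripts, which can differ between long and short genes, was not examined. Total FPKM was 708432, 641278 and 644227 in libraries 1, 2 and 3. Steps between the lowest values put the depth of libraries 2 and 3 at 1.05 and 1.02 times that of library 1. A rough estimate of the absolute depth was 9120000 to 9590000 fragments per library. Both estimates hold only if the deposited values were not rescaled between libraries, which is not known. Of the 24346 gene symbols, 10908 were above 0 in at least 1 library, 7064 in all 3 and 13438 in none. The expressed set used below is the 4793 genes whose mean was at least 1 FPKM, of which 4158 reached 1 FPKM in every library. These 4793 genes held 99.8% of total FPKM, had a median of 6.88 FPKM and had quartiles of 2.47 and 27.0 FPKM. Just inside the threshold lay Tagln and Ubr7, whose means rounded to 1 FPKM, and just outside it lay Gps2 and Cxxc5, both at 0.999 FPKM.

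The 5 genes taken as platelet markers were all among the 27 most abundant. Pf4, which encodes the chemokine platelet factor 4, stood at 17469, 17761 and 19149 FPKM and ranked 5. Ppbp encodes the precursor of β-thromboglobulin, the other major platelet chemokine, and stood at 15759, 12683 and 14032 FPKM, rank 8. Tubb1, the platelet β-tubulin isotype of the microtubule ring, stood at 6601, 6974 and 6147 FPKM, rank 17. Itga2b, the αIIb chain of the fibrinogen receptor, stood at 4302, 4820 and 4728 FPKM, rank 21. Gp9, part of GPIb-IX-V, through which platelets bind von Willebrand factor, stood at 3228, 3444 and 3435 FPKM, rank 27. No library was lowest for all 5 markers, and the coefficient of variation (CV, the SD as a percentage of the mean, n = 3) ran from 3.62% for Gp9 to 10.9% for Ppbp.

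Pf4 and Ppbp are neighbours on mouse chromosome 5, at positions 90772435 to 90773383 and 90768518 to 90770063 on the plus strand of GRCm38 in the GENCODE annotation, with 3 exons each. Itga2b lies on the minus strand of chromosome 11, at 102453297 to 102470122, with 30 exons. The promoter windows of these 3 genes are shown because Pf4 and Itga2b are standard models of megakaryocyte transcription and Ppbp is the adjoining gene. Each window runs from 250 bases before to 50 bases after the RefSeq start in GRCm38.p6. The windows are chr5:90772185-90772484 (plus strand), chr5:90768268-90768567 (plus strand) and chr11:102469834-102470133 (minus strand). Capitals mark the words searched on both strands, which are a GATA word, an ETS word (AGGAAG) and a TATA word (TATAAA). The GATA word was taken in any of these spellings: AGATAA, the spelling AGATAG, the spelling TGATAA and the spelling TGATAG.
Pf4 promoter: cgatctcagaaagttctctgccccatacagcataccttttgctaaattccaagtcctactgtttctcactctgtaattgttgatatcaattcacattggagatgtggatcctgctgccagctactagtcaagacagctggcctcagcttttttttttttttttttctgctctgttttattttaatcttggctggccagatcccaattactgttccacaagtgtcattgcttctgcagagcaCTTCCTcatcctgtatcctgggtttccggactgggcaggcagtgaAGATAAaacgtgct
Ppbp promoter: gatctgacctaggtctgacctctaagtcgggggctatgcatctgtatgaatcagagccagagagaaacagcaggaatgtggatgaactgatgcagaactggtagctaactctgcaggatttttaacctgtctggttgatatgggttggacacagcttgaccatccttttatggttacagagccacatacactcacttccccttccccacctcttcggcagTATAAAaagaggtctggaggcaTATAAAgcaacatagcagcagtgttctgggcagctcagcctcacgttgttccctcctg
Itga2b promoter: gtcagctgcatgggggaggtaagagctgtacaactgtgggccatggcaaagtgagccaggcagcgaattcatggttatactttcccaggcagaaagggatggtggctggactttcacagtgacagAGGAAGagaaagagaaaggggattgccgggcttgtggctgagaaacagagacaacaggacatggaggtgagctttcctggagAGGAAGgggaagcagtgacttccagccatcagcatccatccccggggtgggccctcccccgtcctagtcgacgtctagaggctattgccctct

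The Pf4 window held 1 GATA and 1 ETS word, the Ppbp window 2 TATA words and the Itga2b window 2 ETS words, and none of these words overlapped another. Such words are common. Over all 32851 promoter windows in the table, 29.8% held a GATA word, 35.4% the ETS word and 13.6% the TATA word. The rank bands that follow count protein-coding genes only, whereas the 32851 windows were not limited in this way. In the promoters of protein-coding genes among the 50 most abundant the shares were 28.1%, 33.3% and 24.6% (57 windows). In those of genes ranked 51 to 200 they were 26.4%, 32.1% and 7.86% (140 windows). At ranks 201 to 1000 they were 17.0%, 33.7% and 6.77% (813 windows). A word match is a description of letters and not of bound protein. Families of neighbouring, similar genes share promoter sequence, so windows are not independent.

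A few messages made up most of the total FPKM. That total includes globin messages, whose cell of origin was not separated. No symbol with a GENCODE position lay on the mitochondrial genome, so these shares may leave out mitochondrial messages. The first gene, Tmsb4x, held 10.6% ± 0.633 of total FPKM (SD, n = 3), the first 10 genes held 35.5% ± 2.17, the first 100 held 69.9% ± 1.36 and the first 1000 held 95.2% ± 0.262. Ranked by mean level, 26 genes reached 50% of the total and 496 reached 90%. Within single libraries 22, 27 and 28 genes reached 50%. The order was stable, with 9 genes common to the 3 lists of the first 10, 27 to the lists of the first 30, 92 to those of the first 100 and 466 to those of the first 500. Of the expressed genes, 2016 had a mean of at least 10 FPKM, 556 of at least 100, 101 of at least 1000 and 11 of at least 10000.

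**Figure D1:**
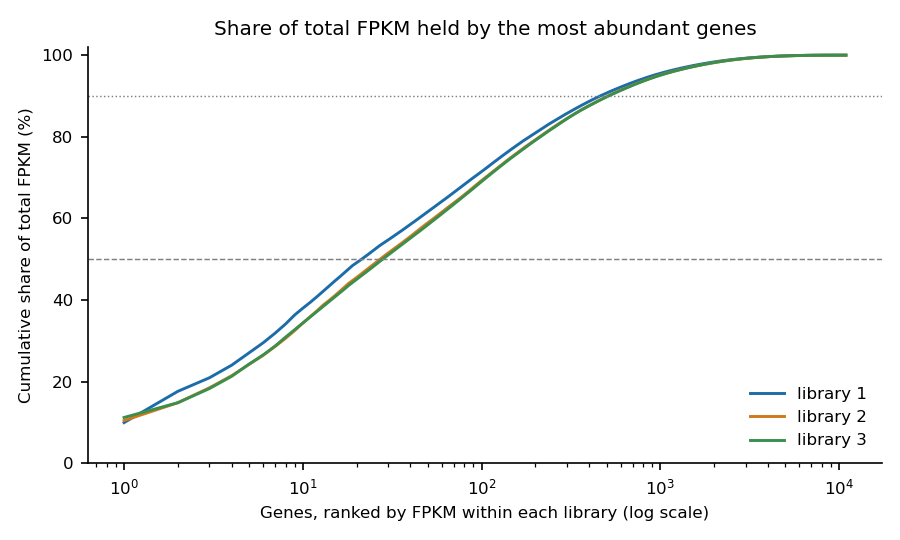
The cumulative share of total FPKM (vertical axis, %) is drawn against genes ranked within each library (horizontal axis, log scale), 1 line per library, with the 50% level dashed and the 90% level dotted. Library 1 reached 50% of its total with 22 genes and libraries 2 and 3 with 27 and 28, and all 3 lines reach 90% between 461 and 513 genes.

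Tmsb4x encodes thymosin β4, the main protein that holds actin monomers out of filaments, and stood at 70765, 67313 and 72456 FPKM. Ferritin, which stores iron, filled ranks 3 and 4. The light chain Ftl1 stood at 23451, 23356 and 23317 FPKM and the heavy chain Fth1 at 21919, 19085 and 19394 FPKM. Ftl1 also has 5 near-identical copies in the annotation, so its exact level is uncertain. The tetraspanin Cd9 followed Pf4 at 16754, 13979 and 14583 FPKM. Ctla2a, which encodes a cysteine protease inhibitor, stood at 15771, 14251 and 14001 FPKM. Tsc22d1, a leucine-zipper protein, stood at 11730, 12240 and 11758 FPKM. These last 2 genes belonged to none of the functional lists.

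α- and β-globin messages entered the same top 10 through Hba-a1 and Hbb-b1. Hba-a1 stood at 54316, 27994 and 22280 FPKM and Hbb-b1 at 21382, 11831 and 8895 FPKM. Library 1 had the highest value of both genes and library 3 the lowest. Next came the myosin light chains Myl6 (10074 ± 261 FPKM, SD, n = 3) and Myl9 (9179 ± 344). Myl6 has 5 near-identical copies, so its exact level is uncertain. B2m, the shared light chain of MHC class I, stood at 8604 ± 1059 FPKM and Lyz2, lysozyme, at 7683 ± 609. The G protein γ subunit Gng11 stood at 7018 ± 294 FPKM, the granule chaperone clusterin, Clu, at 6892 ± 278, and the 14-3-3 protein Ywhah at 6248 ± 270.

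**Figure D2:**
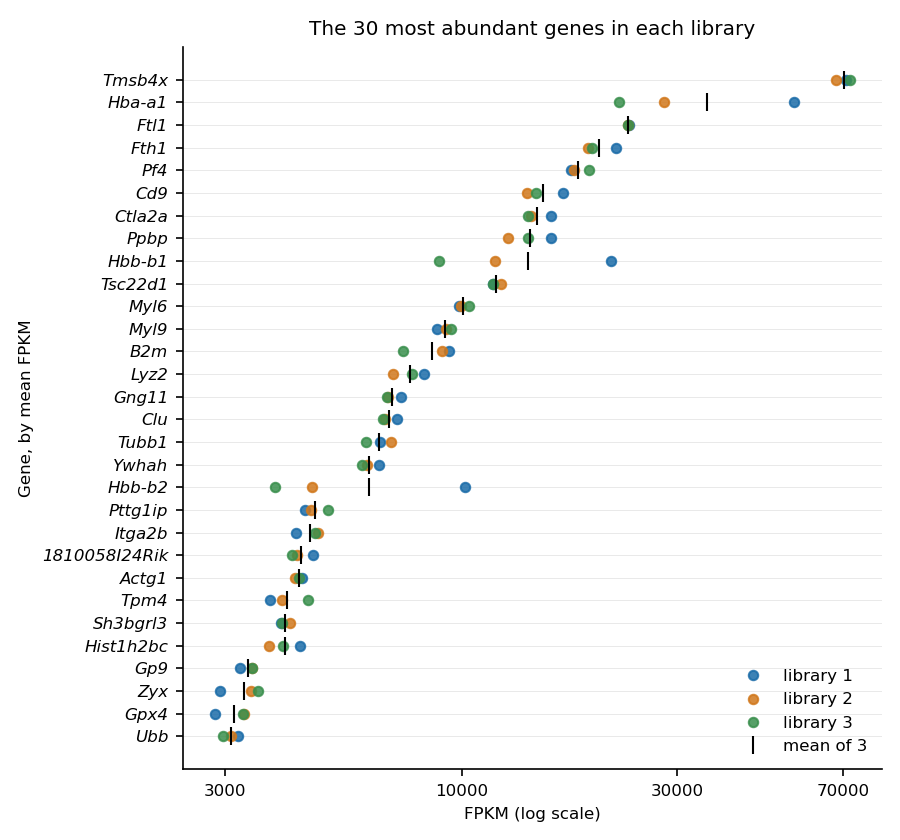
The FPKM of the 30 most abundant genes (horizontal axis, log scale) is shown for each of the 3 libraries as points, with their mean as a bar, ordered by mean level. Most genes have 3 nearly coincident points, whereas Hba-a1, Hbb-b1 and Hbb-b2 were 2.40-fold to 2.64-fold higher in library 1 than in library 3.

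When every symbol was put in 1 class, genes of the actin and myosin class held the largest named share, 17.3% ± 1.14 of total FPKM (SD, n = 3), of which Tmsb4x gave 61.1%. Globin genes held 8.56% ± 3.73, α-granule proteins 7.40% ± 0.358, iron and ferritin genes 6.58% ± 0.125 and adhesion receptors 6.05% ± 0.290. G proteins with their regulators held 2.46% ± 0.0851, integrin activation genes 2.22% ± 0.206, MHC class I genes 1.72% ± 0.154 and tubulin and microtubule genes 1.42% ± 0.101. Named genes in no class held 32.0% ± 1.28, spread over 3712 expressed genes. The globin share was 12.8%, 7.20% and 5.71% in libraries 1, 2 and 3, and its SD was the widest of these named classes.

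**Figure D3:**
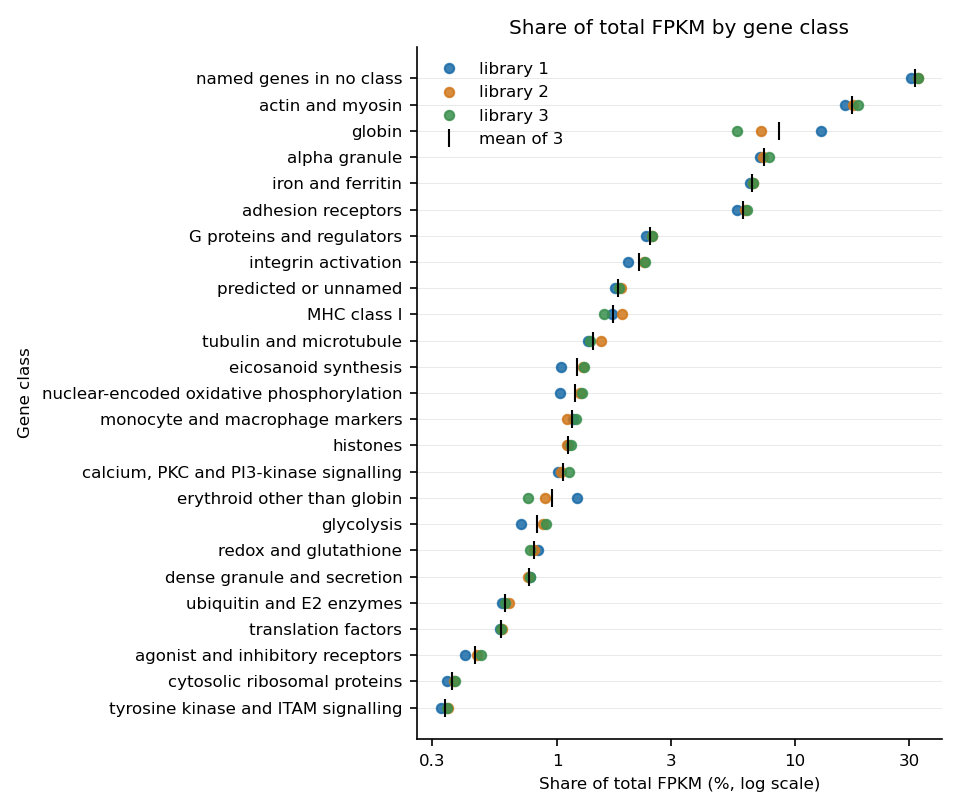
Each of the 25 classes with a mean share of at least 0.3% is shown by its share of total FPKM in the 3 libraries (points, horizontal axis, log scale) and their mean (bar). Globin ran from 5.71% to 12.8% and the other erythroid genes from 0.757% to 1.22%, with library 1 highest in both, while most other classes had points close together.

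Of 81 listed genes of the actin skeleton, 71 were expressed and 35 were at 100 FPKM or more. Over all 24346 symbols, 4793 were expressed, 556 were at 100 FPKM or more and 13438 were listed at 0. These counts are the background for every list count below. The lists were chosen with earlier results of these data known, so the number of members expressed depends in part on that choice. Among genes for actin and proteins that bind its monomers, Actg1 (γ-actin) stood at 4439, 4277 and 4357 FPKM, while Actb (β-actin) stood at 654, 707 and 767. Actg1 thus held 86.0% ± 1.09 of the cytoplasmic actin level, with the reservation that Actg1 has 5 near-identical copies. Cfl1, the actin-severing protein cofilin, stood at 1222 ± 153 FPKM and the monomer binder profilin, Pfn1, at 1200 ± 76.7. Tpm4 held 83.9% ± 0.482 of tropomyosin, the coiled coil that lies along filaments, at 4116 ± 405 FPKM. The filament binders Tagln2 and gelsolin, Gsn, stood at 1999 ± 107 and 1260 ± 69.6 FPKM. Of the Arp2/3 complex and its activators, which nucleate branched actin, 16 of 17 genes were expressed, led by Arpc2 at 936 ± 56.4 FPKM. Myh9, the heavy chain of non-muscle myosin, stood at 95.6, 141 and 119 FPKM and was nearly the only heavy chain of its family, with Myh10 at 0.0564 FPKM and Myh14 listed at 0. Flna, which crosslinks actin and links it to GPIb, stood at 631, 794 and 710 FPKM. Of the small GTPases that steer actin assembly, Rac1 stood at 1862 ± 81.0 FPKM, Cdc42 at 283 ± 29.8 and Rhoa at 125 ± 0.783.

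Microtubule genes were led by a single isotype. Tubb1 held 87.8% ± 1.04 of β-tubulin, and the next member, Tubb2a, held 8.30% ± 1.19 at 719, 663 and 490 FPKM. α-Tubulin had no such leader, since Tuba4a held 42.4% ± 3.18 (220, 274 and 288 FPKM) and Tuba1a 38.2% ± 0.223 (217, 242 and 242 FPKM). In library 1 these α-tubulins were 220 and 217 FPKM, so their order rests on libraries 2 and 3. Tuba1a has 11 near-identical copies and Tubb2a has 1, Tubb2b, so the values of Tuba1a and Tubb2a are less certain. The summed β-tubulin level was 7487 FPKM and the summed α-tubulin level 613 FPKM, although the 2 proteins pair one to one in the microtubule. A level of message is not a level of protein, and protein was not measured.

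α-Granule cargo was dominated by its chemokines. Of 60 listed genes, 28 were expressed and 13 were listed at 0 in all 3 libraries. Pf4 held 56.2% ± 3.17 of the platelet chemokine level and Ppbp 43.8% ± 3.16. Srgn, the proteoglycan core that binds them in the granule, stood at 3082, 2813 and 3110 FPKM, and the chemokine Cxcl5 at 17.2, 16.6 and 15.5 FPKM. Of 28 adhesive and clotting genes 16 were expressed. Clu led them, followed by Ecm1 (1548 ± 44.2 FPKM), thrombospondin Thbs1 (1294 ± 186), multimerin Mmrn1 (706 ± 86.5), von Willebrand factor Vwf (564 ± 51.8), the factor XIII subunit F13a1 (439 ± 38.6) and factor V, F5 (435 ± 43.9). Selp, the P-selectin that appears on the surface of activated platelets, stood at 70.4, 76.6 and 88.9 FPKM. The fibrinogen genes were near 0, with Fga at 0, 0.202 and 0, Fgb at 0, 0.144 and 0, and Fgg at 0, 0.224 and 0.0771 FPKM. Fibrinogen is known to be taken up from plasma. Of 17 growth factor and matrix genes 4 were expressed, which were Ltbp1, whose protein binds latent TGF-β, at 308 ± 24.8 FPKM, Pdgfa at 94.6 ± 7.20, Angpt1, angiopoietin, at 81.7 ± 4.10 and Tgfb1 at 9.70 ± 1.5. Pdgfb was listed at 0. Nbeal2, needed for α-granule formation, stood at 0.605, 1.43 and 0.580 FPKM.

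Of 45 listed adhesion receptor genes, 39 were expressed and 26 were at 100 FPKM or more. In GPIb-IX-V, Gp9 exceeded Gp1bb (1083, 1391 and 1403 FPKM) and Gp5 (982, 1219 and 1124 FPKM), and Gp1ba, the ligand-binding chain, was lowest at 262, 344 and 308 FPKM. The 4 subunits kept this order in each library, although the ranges of Gp1bb and Gp5 over the libraries overlapped. Itga2b held 88.9% ± 0.692 of the integrin α level, followed by the laminin receptor chain Itga6 at 371 ± 22.8 FPKM. Its partner Itgb3 stood at 1091, 1244 and 1289 FPKM and held only 36.0% ± 0.831 of the integrin β level. The rest was shared by Itgb1 (832 ± 39.5 FPKM), Itgb5 (752 ± 63.9) and the leukocyte chain Itgb2 (559 ± 41.3). Itga2, which pairs with Itgb1 to bind collagen, stood at 32.6, 47.5 and 45.4 FPKM. Of the receptors that signal through ITAM motifs, Clec1b (the podoplanin receptor CLEC-2) stood at 2184, 2378 and 2633 FPKM, the shared FcRγ chain Fcer1g at 1354, 1345 and 1406, and the collagen receptor Gp6 at 587, 609 and 626. Treml1, a granule-stored receptor, stood at 1581 ± 48.0 FPKM, Cd47 at 577 ± 39.9 and the inhibitory receptor G6b at 535 ± 65.8.

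Of 30 matched agonist and inhibitory receptor genes, 9 were expressed and 8 were listed at 0, against 4793 and 13438 of all 24346 symbols. The ADP receptor P2ry12 stood at 1072, 887 and 882 FPKM. The ATP-gated channel P2rx1 stood at 456 ± 25.6 FPKM and the second ADP receptor, P2ry1, at 59.2 ± 2.84. Among thrombin receptors, F2rl2 (PAR3, the thrombin cofactor of mouse platelets) stood at 326, 380 and 391 FPKM and held 90.03% ± 3.22 of the family. F2rl3 (PAR4, the receptor that signals in mouse platelets) stood at 13.2, 10.7 and 10.6 FPKM and F2r (PAR1) at 15.8, 22.7 and 51.3 FPKM. F2r exceeded F2rl3 in each library, but its 3 values had a CV of 63.0%. Tbxa2r, the thromboxane receptor, was near 0 at 0.0653, 0.248 and 0.0639 FPKM, while the prostacyclin receptor Ptgir stood at 14.7, 11.7 and 12.6 FPKM. None of the 10 matched receptors for amines, adenosine and peptides reached 1 FPKM.

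Several families of intracellular signalling genes had 1 leading member. Gng11 held 85.7% ± 0.0969 of the G protein γ level. Gnas, the α subunit that raises cyclic AMP, held 79.9% ± 0.567 of the α level at 2336 ± 282 FPKM. Gnai2, the α subunit to which P2ry12 couples, stood at 354 ± 42.5 FPKM, Gnaz at 163 ± 5.11, Gnaq at 30.6 ± 4.04 and Gna13 at 11.4 ± 3.47. The regulators Rgs10 and Rgs18, which switch G proteins off, stood at 2007 ± 67.0 and 1388 ± 244 FPKM. The Src family kinase Lyn stood at 344, 344 and 364 FPKM and held 81.3% ± 0.750 of its family, and Fyn stood at 68.0 ± 1.15. Syk, the kinase that ITAM receptors recruit, stood at 41.4 ± 6.26 FPKM and the adaptor Lat at 97.6 ± 11.4. Plcg2, the phospholipase downstream of Syk, stood at only 1.37, 2.62 and 0.273 FPKM. The calcium pump Atp2a3 held 99.9% ± 0.0837 of its family at 1101 ± 42.3 FPKM. The calcium sensor Stim1 stood at 100.1 ± 12.7 FPKM and the channel Orai1 at 37.0 ± 4.58. Plek, pleckstrin, a major protein kinase C substrate of platelets, stood at 2774 ± 253 FPKM.

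Proteins that activate and anchor integrins were also abundant, with 23 of 32 listed genes expressed and 15 at 100 FPKM or more. Zyx, zyxin of focal adhesions, led at 2924, 3415 and 3549 FPKM. Fermt3, the kindlin of blood cells, stood at 2233, 2362 and 2423 FPKM and was the only kindlin above 1 FPKM. Rap1b stood at 1980 ± 245 FPKM and held 90.7% ± 1.24 of the Rap level. Its activator Rasgrp2 stood at 356 ± 30.9 FPKM and talin, Tln1, which Rap1 recruits to the integrin, at 303 ± 21.7. Of the ILK complex, Ilk stood at 1664 ± 157 FPKM, Rsu1 at 835 ± 115, Lims1 at 366 ± 48.8 and Parvb at 65.7 ± 7.85. Apbb1ip, the Rap1 effector RIAM, was listed at 0, 0 and 0.0436 FPKM.

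Among genes of secretion and lipid mediators, 1 syntaxin and 1 lipoxygenase led their families, whereas 2 VAMP genes were nearly level. Stx11 held 83.1% ± 1.09 of the syntaxin level at 1401, 1179 and 1120 FPKM, and Snap23 stood at 1448 ± 195. Both are SNARE proteins of granule release. Stxbp2, the Munc18 protein that binds Stx11, stood at 70.0 ± 6.75 FPKM. Vamp8 (52.3, 67.0 and 66.3 FPKM) and Vamp3 (57.9, 52.0 and 51.6 FPKM) overlapped, and Vamp8 was the higher in only 2 of 3 libraries. Vamp8 held 49.0% ± 3.93 of the family level, but 28.9% when levels were multiplied by transcript length. The serotonin transporter Slc6a4, which fills dense granules together with Slc18a2, stood at 370 ± 15.2 FPKM and Slc18a2 at 21.1 ± 4.80. Alox12, the platelet 12-lipoxygenase, stood at 2933 ± 205 FPKM, above the cyclooxygenase Ptgs1 at 379 ± 59.0 and the thromboxane synthase Tbxas1 at 268 ± 36.3.

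**Figure D4:**
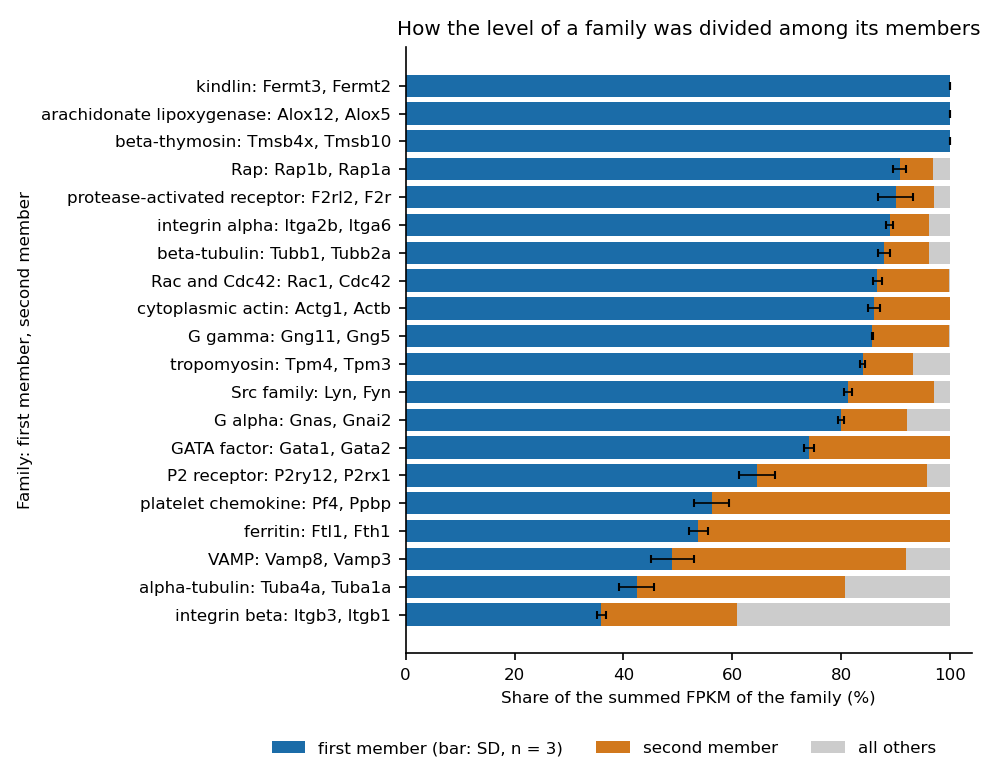
For 20 gene families the bars give the share of the summed FPKM held by the first member (blue, with the SD over 3 libraries), the second (orange) and all others (grey). The first member held 90% or more in the β-thymosin, kindlin, lipoxygenase, Rap and protease-activated receptor families, and under 50% in the VAMP, α-tubulin and integrin β families.

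Of the 44 families compared, 31 had a first member that held at least 80% of the summed level, and 42 had the same first member in all 3 libraries. The exceptions were VAMP and fibrinogen, whose genes were all under 1 FPKM. Other families with a near-exclusive member were talin, with Tln2 listed at 0, lactate dehydrogenase, with Ldhb listed at 0, the factor XIII subunits, hexokinase (Hk1, 202 ± 12.9 FPKM) and the glucose transporters (Slc2a3, 1167 ± 57.4 FPKM). Bcl2l1, whose protein BCL-XL sets platelet life span, held 99.4% ± 0.106 of the survival-protein level at 434, 472 and 519 FPKM.

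Most genes for cytosolic ribosomal proteins and for respiration were expressed. Of 82 cytosolic ribosomal protein genes, 77 were expressed. The median over those 77 was 9.08 FPKM, against 6.88 FPKM over all expressed genes. Together the 82 genes held 0.364% ± 0.0152 of total FPKM. Rpl41 alone, at 1015, 1006 and 954 FPKM, gave 41.1% of that. Many ribosomal proteins have processed pseudogenes that share their sequence, which can move fragments between genes. Nuclear genes of oxidative phosphorylation held 1.19% ± 0.135, with 79 of 95 expressed, 18 at 100 FPKM or more and a median of 23.9 FPKM over all 95. Of 77 mitochondrial ribosomal protein genes, 33 were expressed and 9 were listed at 0, against 4793 and 13438 of all 24346 symbols. The translation initiation factor Eif1 stood at 2250 ± 118 FPKM and the elongation factor Eef1a1 at 120 ± 7. Among megakaryocyte transcription factors, which act in the nucleus of the parent cell, 24 of 33 were expressed. Nfe2 stood at 547 ± 34.2 FPKM, Gata1 at 93.0 ± 1.1, Fli1 at 51.8 ± 2.39, Gata2 at 32.6 ± 1.59, Tal1 at 19.3 ± 1.31 and Runx1 at 16.2 ± 1.73.

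Markers of other blood cells were measured from lists. Of all 24346 symbols, 4793 reached a mean of 1 FPKM and 13438 were listed at 0. None of 20 matched neutrophil markers reached 1 FPKM, their sum was 0.617 to 3.68 FPKM per library, and S100a9, Mpo and Elane were listed at 0. None of 13 B cell markers reached 1 FPKM, their sum was at most 1.11 FPKM, and Ms4a1 was listed at 0. Of 21 T and NK cell markers, 16 were listed at 0, including Cd3e, Cd3d and Cd3g, and the 3 at 1 FPKM or more were Ccl5, Cd28 and Nkg7, with means of 3.65 to 4.76 FPKM. Of 17 monocyte and macrophage markers, 3 reached 1 FPKM, of which Lyz2 and F13a1 made up nearly the whole sum of 7487 to 8640 FPKM per library. The third, Cd14, stood at 3.21, 0.879 and 0.907 FPKM, and Ccr2 and Cx3cr1 were listed at 0. Lyz2 thus stood at rank 14 and F13a1, which is also in the α-granule list, at rank 201. All others but Cd14 had means under 1 FPKM. Lyz2 has 1 near-identical copy, Lyz1, so its exact level is uncertain. The part of other cells in Lyz2 was not tested. None of 8 MHC class II genes reached 1 FPKM.

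Erythroid genes were the exception, with 19 of 27 expressed and 12 at 100 FPKM or more. Their sum was 99192, 51901 and 41645 FPKM in libraries 1, 2 and 3, a CV of 47.8%. Without these 27 genes, total FPKM was 609241, 589377 and 602581, a CV of 1.68% against 5.71% for the full total. Alas2, the first enzyme of haem synthesis in red cells, stood at 1714, 826 and 532 FPKM. Bpgm, which makes the regulator of haemoglobin's oxygen affinity, stood at 923, 452 and 330 FPKM, and Fech, which puts iron into haem, at 362, 151 and 140 FPKM. The band 3 anion exchanger Slc4a1 stood at 69.5, 29.4 and 24.7 FPKM. Of the 19 expressed members, 18 were highest in library 1, against 36.0% of all expressed genes, and 15 were ordered library 1, 2, 3 from high to low, against 18.4% of all. Their median ratio of library 1 to library 3 was 2.44, against 0.985 over all expressed genes. Bsg, at 290, 353 and 346 FPKM, was the 1 member lowest in library 1, and Mkrn1, at 2529, 2195 and 2058 FPKM, had a ratio of library 1 to library 3 of 1.23. In bulk RNA, more erythroid cells and more erythroid RNA per cell cannot be told apart, and young red cells, RNA free in the sample and RNA of the megakaryocyte itself were not separated. Hba-a2, a near-identical copy of Hba-a1, was listed at 0, 0 and 0.0977 FPKM, so the split between them is uncertain. Hbb-b1 and Hbb-b2 had no GENCODE entry, so near-identical copies were not searched for them. How fragments were divided among Hbb-b1, Hbb-b2 and Hbb-bs is therefore uncertain too.

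Across all expressed genes the spread between libraries was narrower at higher levels. The median CV was 35.8% for genes at 1 to 3 FPKM, 22.8% at 3 to 10, 15.2% at 10 to 30, 10.8% at 30 to 100, 8.69% at 100 to 1000 and 6.33% at 1000 and above. Counting error alone, from the rough fragment number at the median of each band, would give CVs of 15.1%, 8.80%, 5.24%, 2.92%, 1.44% and 0.538%. The measured median was above that in every band, by the smallest factor at the lowest levels. Over all expressed genes, Pearson's r of log2(FPKM + 1) was 0.977 between libraries 1 and 2, 0.973 between 1 and 3 and 0.980 between 2 and 3. These are correlations across genes, which are not independent. The number of expressed genes at least 2-fold apart was 246, 310 and 197 for the same pairs. At 100 FPKM or more it was 7, 16 and 2 of 556 genes.

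**Figure D5:**
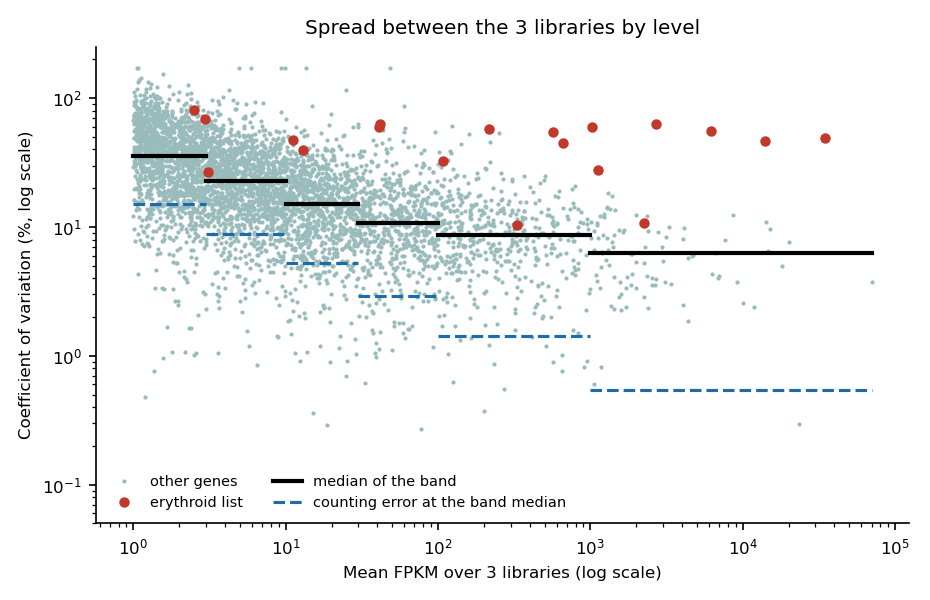
The CV over the 3 libraries (vertical axis, %, log scale) is plotted against the mean FPKM (horizontal axis, log scale) for every expressed gene, with erythroid genes in red, the median of each level band as a black bar and the counting error at the band median as a dashed blue bar. The medians fall from 35.8% to 6.33% with level, while erythroid genes such as Hba-a1 (49.0%) and Alas2 (60.1%) lie far above the band of their level.

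Among the 556 genes at 100 FPKM or more, the median CV was 8.24%, 138 genes were under 5% and 46 were above 20%. Of those 46, 32 were highest in library 1, compared with 246 of all 556. The highest CV belonged to Hbb-bs (63.1%), followed by Rsad2, an interferon-induced gene, at 211, 76.1 and 85.4 FPKM (60.6%). The others of the 8 highest were Alas2, Fech, Hbb-b2, Bpgm, Car2 and Slc25a39, genes of red cells or haem synthesis, at 52.5% to 60.1%. Rsad2 was again highest in library 1 but is no erythroid gene. The lowest CVs belonged to Ftl1 (0.295%), Tssc1 (0.376%), Sytl4 (0.550%), Odc1 (0.600%), Rhoa (0.624%), Ndufa4 (0.763%), R3hdm4 (0.815%) and Pdlim1 (0.817%). With 3 values a CV this small can arise by coincidence, and these genes were picked for it.

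Among genes above 0, abundant messages tended to be short. Among protein-coding genes the median transcript length was 1390 bases for ranks 1 to 50, 2089 for ranks 51 to 200, 2331 for ranks 201 to 1000, 2733 for the remaining expressed genes and 3128 for genes above 0 but under 1 FPKM. Genes listed at 0 in all 3 libraries broke this order, with a median of 2410 bases. The first 50 include Tmsb4x (864 bases), Pf4 (588), Hba-a1 (699) and Ftl1 (968). Over the 4597 expressed protein-coding genes, Spearman's rank correlation between level and transcript length was -0.17, between level and exon number -0.13 and between level and GC content 0.07, across genes that are not independent and with FPKM itself divided by length. Chromosomes X and 11 held the largest shares, 11.99% ± 0.591 and 11.8% ± 1.79, led by Tmsb4x and Hba-a1.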

How the data were processed

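Platelet total RNA (TRIzol, then miRNeasy Micro columns) was copied with SMART-Seq HT and made into libraries with Nextera XT, per the labels' protocols. These kits do not mark strand, so overlapping exons on opposite strands cannot be told apart. The authors deposited 1 table of FPKM per library, made using Cuffdiff 2.2.1, TopHat2 2.1.1 with Bowtie2 2.2.8, SAMtools 0.1.18 and build mm10, per the submitters' processing notes. The sources used here give no settings, no gene annotation and no rule for fragments that match several genes. A value of 0 can be a failed estimate and is reported as listed at 0.

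The deposited FPKM were used without further scaling. Means, SDs, ranks, shares of total FPKM and CVs were computed with Python 3.11.15, pandas 2.3.3 and numpy 2.4.6, and drawn with matplotlib 3.10.9. Relative depth was the most frequent ratio between 2 libraries of values from 0.02 to 0.5 FPKM, and absolute depth from genes with 1 transcript of at least 3000 bases. The choice of the band of values for the latter followed inspection of the data, so it is rough. Each symbol entered 1 class, functional lists before name patterns. Transcript lengths and positions came from GENCODE M21, which matched 98.5% of symbols. Near-identical copies were found with BLAST+ 2.17.0 (at least 95% identity over 50% of the transcript). The functions for CVs, scale factors, relative depth and shares were tested on simulated data.

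Members and gene lists were chosen with earlier results of these data known. The genes named were the 30 most abundant, the 5 markers, the 4 most abundant of each list, the first and second of each family, the 8 highest and 8 lowest CVs at 100 FPKM or more, 2 genes on each side of the threshold, the 5 most abundant predicted genes and the 5 most abundant in no list, together with members listed at 0. Further genes were named for their role after their values were seen. Some genes that this rule covers are not reported here.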

Additional observations from a re-analysis of the deposited data

How the results depend on the processing

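Of 197 settings tried, 154 left the value within 1 SD over the libraries, or a count within 1.5 times. Leaving out 1 library cannot move a mean level, class share or family share by 1 SD of the same values. Those settings therefore had to pass and say nothing about stability. Weighting by transcript length, which left out Hbb-b1 and Hbb-b2 for want of a length, put globin below integrin activation. Leaving out the genes without a length and not weighting, chosen after seeing the data, gave a globin share of 5.77%. The 4793 expressed genes became 2745 at a mean of at least 5 FPKM. All 35 settings tried on the levels of the 5 markers, Tmsb4x and Hba-a1 left them within 1 SD. For the settings that left out 1 library this was fixed in advance. The other settings divided the libraries by factors close to 1, which can hardly move a mean over the libraries. They too say little about stability. Multiplying FPKM by transcript length, which turns shares of molecules into shares of fragments, gave 11.1% for actin and myosin, 2.23% for globin, 6.34% for α-granule, 4.61% for iron and ferritin, 6.76% for adhesion receptors, 2.66% for G proteins, 3.82% for integrin activation, 0.536% for oxidative phosphorylation and 0.145% for cytosolic ribosomal proteins. Among 9 families the same step gave 86.3% for Tubb1, 52.1% for Tuba4a, 85.9% for Itga2b, 49.3% for Itgb3 and 28.9% for Vamp8. With globin genes out of the total, actin and myosin held 18.9%, α-granule 8.09%, iron and ferritin 7.20%, adhesion receptors 6.61%, G proteins 2.69% and cytosolic ribosomal proteins 0.398%. Without the 10 most abundant genes, actin and myosin held 10.4%, globin 2.07%, α-granule 3.93%, iron and ferritin 0.0444%, G proteins 3.81%, integrin activation 3.43%, oxidative phosphorylation 1.84% and cytosolic ribosomal proteins 0.564%. These changes follow from the construction of each alternative.

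The median CV of 19.1% was 52.5% with no filter, 13.4% at 5 FPKM or more and 13.04% to 16.6% with 1 library left out, where a CV of 2 values is smaller by construction, lowest without library 1. With a pseudocount of 0.1, Pearson's r was 0.958, 0.952 and 0.963. With no filter it was 0.982 and 0.980 for the pairs with library 1. Spearman's rank correlation was 0.946, 0.937 and 0.951. Without library 1, an alternative chosen after seeing the data, the number of expressed members changed in 14 of 27 lists, by at most 2. No paired analysis was possible because only 1 group was described and no test was made. Depth limits genes near 1 FPKM. Counting error alone gives a CV of about 15.1% at the median of the band from 1 to 3 FPKM, and more at 1 FPKM for the same length.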

Other observations

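Several of the most abundant messages belonged to no list. Beside Ctla2a, Tsc22d1 and Ywhah, these were Pttg1ip (4735 ± 286 FPKM, SD, n = 3) and Sh3bgrl3 (4058 ± 101). Ctla2b, a neighbour of Ctla2a on chromosome 13, stood at 1691, 1496 and 1405 FPKM. Nrgn, neurogranin, a calmodulin-binding protein best known from neurons, stood at 2631, 2568 and 2754 FPKM. The most abundant gene without a formal name was 1810058I24Rik, at 4685, 4323 and 4203 FPKM. It was followed by Gm1821 at 2231 ± 64.4 FPKM and 1700020I14Rik at 471 ± 61.2. Further down this group stood 1110007C09Rik at 346 ± 23.2 FPKM and 4833439L19Rik at 313 ± 16.3. Gm1821 is annotated as a transcribed processed pseudogene. Its 2 near-identical copies include the ubiquitin gene Ubb, at a mean of 3084 FPKM, so fragments of Ubb may be counted in Gm1821. The histone message Hist1h2bc stood at 4398, 3744 and 4024 FPKM, 54.7% of the histone class. Mir6340 was listed at 1423, 1267 and 1470 FPKM, 82.6% of the small noncoding class. Its exon overlaps an exon of Rab22a on the opposite strand, and without strand the fragments of these genes cannot be told apart.

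Of 36 listed redox genes, 28 were expressed. Gpx4, which reduces lipid peroxides, stood at 2840, 3306 and 3278 FPKM and Gpx1, the cytosolic glutathione peroxidase, at 1579, 1243 and 1111. Prdx2, an abundant red cell peroxiredoxin outside the erythroid list, stood at 329, 201 and 129 FPKM, highest in library 1 and lowest in library 3 like Hba-a1 and Hbb-b1. Of interferon-stimulated genes 17 of 31 were expressed, led by Isg20 at 646, 468 and 404 FPKM and Ifitm3 at 264, 320 and 379 FPKM, while Mx1 and Mx2 were listed at 0. Of 18 immediate early genes, which rise in disturbed nucleated cells, 2 were expressed, and Fos and Fosb were listed at 0. Of 24 cell division genes 3 were expressed, led by Ube2c at 54.5, 31.2 and 36.2 FPKM. Ube2c is also abundant in maturing red cells.

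Hepatocyte markers appeared at low levels in libraries 2 and 3 and were listed at 0 in library 1. Their summed level was 0, 11.2 and 2.90 FPKM over 9 genes, with Apoa2 at 0, 4.37 and 0.335 and Fabp1 at 0, 3.40 and 1.76 FPKM. Endothelial markers summed to 38.1 to 45.1 FPKM, mostly Plvap at 33.5, 34.6 and 29.2, while Cdh5 was listed at 0. Genes used by most cells also included some listed at 0 in all 3 libraries, such as Psmg1 of proteasome assembly and Mrpl37 and Mrps2 of the mitochondrial ribosome, so a listed 0 here does not show that a message was absent. Tbxa2r, Plcg2, Apbb1ip and Nbeal2, whose proteins are well known in platelets, stood near or under 1 FPKM.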
